A study of Mus musculus with 24 samples.

Results

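The transcription factor genes *Olig2*, *Pax6*, *Nkx2-9*, *Otx2*, *Rfx4*, *Zic1*, *Zic2*, *Sox1* and *Sox2*, all regulators of the developing neural tube, were followed on arrays of mouse tissue that was dissected for its anterior heart field (AHF), the mesoderm that adds muscle to the cardiac outflow tract. These 9 genes are among the 19938 genes with values on the Affymetrix Mouse Gene ST 1.0 chip, and each was read by 1 probe set. The genes were chosen by their values on these same arrays, namely the difference of each mutant group from its controls and the way they varied together within groups, so these values are given as a description and without a test. At E9.5, with 19 to 21 somite pairs, pharyngeal arches of the distal pharyngeal apparatus were dissected without the heart tube. Tissue of 3 or 6 embryos, depending on the genotype, was pooled for each array, and the sources do not give the size for each group. The 24 arrays form 6 groups of 4. *Tbx1 LOF* embryos carried *Mef2c-AHF-Cre/+* with *Tbx1* f/- or f/f, the 2 genotypes being combined. *β-cat LOF* embryos carried *Mef2c-AHF-Cre/+* with *β-catenin* f/f. Rescue embryos were *Tbx1 LOF* embryos in which 1 *β-catenin* allele was also inactivated in the *Mef2c-AHF-Cre* domain. Each mutant group had its own controls, which by the methods were *Tbx1* f/+, *β-catenin* f/+ and *Tbx1* f/+;*β-catenin* f/+ without *Cre*. The sample labels speak of wild type and of heterozygous littermates with *Cre*, which leaves the genotype of the controls open to both readings. By the methods the *Tbx1* f/f line was congenic in Swiss Webster, and the *β-catenin* f/f line had a mixed background of C57Bl/6 and Swiss Webster. The line with both floxed genes was inbred from such a mixed background. *Mef2c-AHF-Cre* is active in AHF mesoderm and its derivatives and not in the neural tube, so none of the 3 mutations was aimed at the cells in which these 9 genes are best known.

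The neural tube lies next to the dorsal pharynx. Its progenitors are held in the progenitor state by SoxB1 factors such as SOX1 and SOX2, and opposing signals divide it along the dorsoventral axis. Sonic hedgehog from the notochord and floor plate sets ventral domains, among them the OLIG2 domain of motor neuron progenitors and the NKX2-9 domain beside the floor plate, with PAX6 in the domains between. ZIC1 and ZIC2 are zinc finger factors of the dorsal neural tube and of paraxial mesoderm, RFX4 is a winged helix factor of neural progenitors needed for brain midline structures and cilia, and OTX2 specifies forebrain and midbrain. Several also act outside the neural tube. SOX2 is made in foregut endoderm and sensory placodes, and OTX2 in anterior ectoderm and endoderm.

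To show the letters that precede these genes, the 250 bases before the start of transcription were read from the RefSeq promoter table (build GRCm38.p6), in which 8 of the 9 genes had an entry, *Zic2* being the other. The windows of *Olig2*, *Nkx2-9* and *Rfx4*, taken from the genes that varied together within groups, and of *Otx2*, which did not vary with them, are printed 5′ to 3′ in the direction of the gene. Capitals mark a SOX motif (CATTGT), a GLI core (CCACCCA), an E-box (CANNTG) or a CCAAT box (CCAAT), each searched on both strands.

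Olig2: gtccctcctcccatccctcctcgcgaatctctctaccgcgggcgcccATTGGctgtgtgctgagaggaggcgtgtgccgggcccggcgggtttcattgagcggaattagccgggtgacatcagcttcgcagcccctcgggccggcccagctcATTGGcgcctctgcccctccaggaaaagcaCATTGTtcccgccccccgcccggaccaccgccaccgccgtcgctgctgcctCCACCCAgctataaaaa
Nkx2-9: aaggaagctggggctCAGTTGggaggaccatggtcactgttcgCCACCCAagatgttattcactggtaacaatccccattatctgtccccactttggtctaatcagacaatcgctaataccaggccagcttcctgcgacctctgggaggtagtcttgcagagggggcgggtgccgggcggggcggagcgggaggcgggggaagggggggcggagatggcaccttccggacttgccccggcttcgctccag
Rfx4: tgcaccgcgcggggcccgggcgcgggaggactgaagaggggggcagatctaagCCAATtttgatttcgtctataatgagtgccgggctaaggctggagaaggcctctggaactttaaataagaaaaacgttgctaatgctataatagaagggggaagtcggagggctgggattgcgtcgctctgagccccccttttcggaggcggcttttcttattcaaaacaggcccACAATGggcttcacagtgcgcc
Otx2: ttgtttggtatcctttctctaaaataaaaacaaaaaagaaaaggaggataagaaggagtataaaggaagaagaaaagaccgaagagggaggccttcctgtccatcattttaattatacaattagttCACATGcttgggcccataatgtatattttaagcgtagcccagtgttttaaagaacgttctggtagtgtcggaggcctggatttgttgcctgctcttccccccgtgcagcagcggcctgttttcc

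These windows lie at chr16:91225300-91225549 (plus strand), chr12:56613285-56613534 (minus strand), chr10:84755798-84756047 (plus strand) and chr14:48667645-48667894 (minus strand). Of the 8 windows, 2 held the SOX motif (*Olig2* and *Rfx4*), 2 the GLI core (*Olig2* and *Nkx2-9*), 3 an E-box (*Nkx2-9*, *Otx2* and *Zic1*) and 6 a CCAAT box. Among all 32851 windows of the table these letters occurred in 10.7%, 8.11%, 66.2% and 33.8% of windows. The octamer ATGCAAAT, the letters read by POU factors, occurred in 0 of the 8 and in 1.6% of all windows. A match describes the letters only, and no binding was measured. The *Otx2* window differed from the other 3 in base composition, with 42.0% G and C against 66.8% in *Olig2*, 61.6% in *Nkx2-9* and 54.8% in *Rfx4*.

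Values are log2 intensities after RMA, which aligns the probe intensities of all arrays before they are summed to probe sets. They ran between 3.62 and 14.56, with array medians of 8.0 to 8.14, and precision is limited by having 4 arrays a group. *Tbx1* itself averaged 11.27 ± 0.20 in *Tbx1 LOF* and 11.92 ± 0.10 in its controls (SD, n = 4 each), a log2 fold change of -0.64 (SE 0.09, limma adjusted p = 0.00626). This call was lost with the array number as a block (adjusted p = 0.122), in a fit to the 8 *Tbx1* arrays alone (0.185), and narrowly without the first *Tbx1 LOF* array (0.0504) or without the third (0.0512) or the last (0.0534) of its controls, while the fold change stayed between -0.70 and -0.55. *Ctnnb1*, which encodes β-catenin, differed by -0.03 (SE 0.06) between *β-cat LOF* and its controls, and whether its probes lie in the deleted exons was not examined. In rescue *Tbx1* differed by -0.31 (SE 0.09), with every rescue array below every control and a limma adjusted p of 1. The AHF genes *Isl1* and *Mef2c* were bright on every array, at 10.47 to 10.93 and at 10.46 to 11.00. Over all genes, 6 of 19938 (0.0301%) passed an adjusted p of 0.05 in *Tbx1 LOF*, 0 (0%) in *β-cat LOF* and 0 (0%) in rescue, where unadjusted p was under 0.05 for 821 (4.12%), 1140 (5.72%) and 253 (1.27%) genes by limma. Single arrays moved these counts. In *β-cat LOF* 42 genes passed without the last control array, and in *Tbx1 LOF* 0 passed without the first mutant array and 32 (0.16%) without the second. All median fold changes over all genes were close to 0, at -0.014, 0.015 and -0.015. In the dissected tissue fewer neural cells and less RNA per neural cell cannot be told apart.

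The SoxB1 genes, which mark the progenitor state, had small differences. *Sox1* measured 8.88, 9.25, 9.32 and 9.04 in *Tbx1 LOF*, against 9.30, 9.25, 9.23 and 9.14 in its controls. In *β-cat LOF* it measured 9.17, 9.15, 9.22 and 9.25, against 9.01, 9.09, 9.01 and 9.12 in controls. In rescue it measured 9.09, 9.07, 9.13 and 9.17, against 8.97, 9.06, 9.28 and 9.20. Only in *β-cat LOF* did all mutant arrays lie above all controls, by a mean of 0.14 (SE 0.08). The difference was -0.11 in *Tbx1 LOF* and -0.01 in rescue, within the spread of the arrays.

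*Sox2*, also a pluripotency and placode gene, measured 10.44, 11.00, 10.43 and 10.62 in *Tbx1 LOF*, against 10.96, 10.57, 10.91 and 10.80 in controls. It measured 10.68, 10.96, 10.73 and 10.66 in *β-cat LOF*, against 10.39, 10.28, 10.61 and 10.60 in controls, and again the 2 groups did not overlap, with a log2 fold change of 0.28 (SE 0.11). In rescue the values were 10.89, 10.67, 10.70 and 10.65, against 10.54, 10.80, 10.59 and 10.70, which overlap. The mean difference of *Sox2* was -0.19 in *Tbx1 LOF*, with 3 of its arrays under 10.7 and the second array at 11.00, the highest of the 24.

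Among ventral regulators, *Olig2*, required for motor neuron and oligodendrocyte lineages, measured 6.93, 8.68, 7.84 and 7.79 in *Tbx1 LOF*, against 8.91, 8.40, 8.41 and 7.79 in controls. In *β-cat LOF* it measured 7.99, 7.47, 7.67 and 8.03, against 7.11, 7.08, 7.04 and 7.15. In rescue it measured 7.99, 7.40, 8.16 and 7.68, against 7.09, 7.34, 7.56 and 7.93. The *β-cat LOF* arrays stood above a tight control group, a log2 fold change of 0.69 (SE 0.26), the *Tbx1 LOF* arrays were widely spread and overlapped their controls (-0.56), and the rescue arrays overlapped theirs (0.33).

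*Nkx2-9*, the gene with the widest spread within groups (SD 0.60), measured 8.04, 10.92, 9.34 and 9.07 in *Tbx1 LOF*, against 10.10, 9.71, 10.19 and 9.76 in controls. It measured 8.93, 8.89, 9.21 and 9.88 in *β-cat LOF*, against 8.38, 8.42, 7.94 and 8.87 in controls, and 9.28, 9.29, 9.76 and 9.59 in rescue, against 8.12, 8.49, 9.03 and 9.21. It was the gene with the largest positive difference in both, 0.83 (SE 0.38) in *β-cat LOF* and 0.77 in rescue, without overlap in either. In *Tbx1 LOF* the difference was -0.60, with the second array above every control and the other 3 below every one.

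*Pax6*, a factor of neural progenitors and of eye and pancreas, measured 7.89, 9.47, 8.30 and 8.21 in *Tbx1 LOF*, against 9.0, 8.87, 9.14 and 8.49. It measured 8.41, 8.22, 8.28 and 8.25 in *β-cat LOF*, against 7.73, 7.60, 7.94 and 7.92. In rescue it measured 8.74, 8.36, 8.41 and 8.30, against 7.90, 8.20, 8.29 and 8.18. The log2 fold changes were -0.41, 0.49 and 0.31 (SE 0.21 each), and the *β-cat LOF* and rescue arrays each lay above all of their controls.

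*Rfx4* measured 7.31, 9.74, 7.83 and 7.78 in *Tbx1 LOF*, against 9.26, 8.57, 8.51 and 8.31 in controls. It measured 8.47, 7.90, 7.86 and 8.40 in *β-cat LOF*, against 7.35, 7.54, 7.27 and 7.65 in controls, which did not overlap. In rescue it measured 8.25, 7.84, 8.54 and 8.37, against 7.38, 7.33, 7.84 and 8.10. Its log2 fold changes were -0.50, 0.70 and 0.58 (SE 0.34 each).

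Of the dorsal regulators, *Zic1* measured 7.68, 9.42, 7.98 and 7.91 in *Tbx1 LOF*, against 9.19, 9.33, 8.81 and 8.18 in controls. In *β-cat LOF* it measured 8.86, 7.78, 8.41 and 7.92, against 7.95, 8.04, 7.96 and 7.97, where 2 of the mutant arrays were above and 2 below all 4 controls. In rescue it measured 8.69, 8.14, 8.50 and 8.28, against 7.75, 7.57, 8.04 and 8.36, and the groups overlapped. The log2 fold changes were -0.63, 0.26 and 0.47 (SE 0.30 each), and the value in *β-cat LOF* was 0.06 without its first array.

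*Zic2*, mutated in human holoprosencephaly, had the largest negative difference of the 9 in *Tbx1 LOF*, -0.85 (SE 0.23). It measured 7.60, 9.24, 7.91 and 8.16 there, against 9.17, 9.18, 9.07 and 8.88 in controls, so that 3 of the 4 arrays were far below a tight control group and the second was above it. It measured 8.82, 8.23, 8.80 and 8.82 in *β-cat LOF*, against 8.36, 8.35, 8.40 and 8.23 in controls (0.34). In rescue it measured 8.77, 8.60, 8.81 and 8.60, against 7.90, 7.54, 8.37 and 8.50 in controls, without overlap (0.62).

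*Otx2*, the anterior regulator, hardly differed in *Tbx1 LOF* and rescue, while in *β-cat LOF* its difference was positive, as for the other 8 regulators. It measured 9.32, 8.88, 8.70 and 8.88 in *Tbx1 LOF*, against 9.20, 8.58, 9.07 and 9.06 in controls, a difference of -0.03 (SE 0.17). It measured 9.07, 9.19, 9.51 and 9.26 in *β-cat LOF*, against 8.62, 8.43, 9.02 and 9.22 (0.44, overlapping), and 8.83, 9.09, 8.98 and 8.96 in rescue, against 8.79, 9.45, 9.04 and 8.90 (-0.08). The first *Tbx1 LOF* array, the lowest of its group for 7 of the other 8 regulators, was the highest of its group for *Otx2*.

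**Figure D1:**
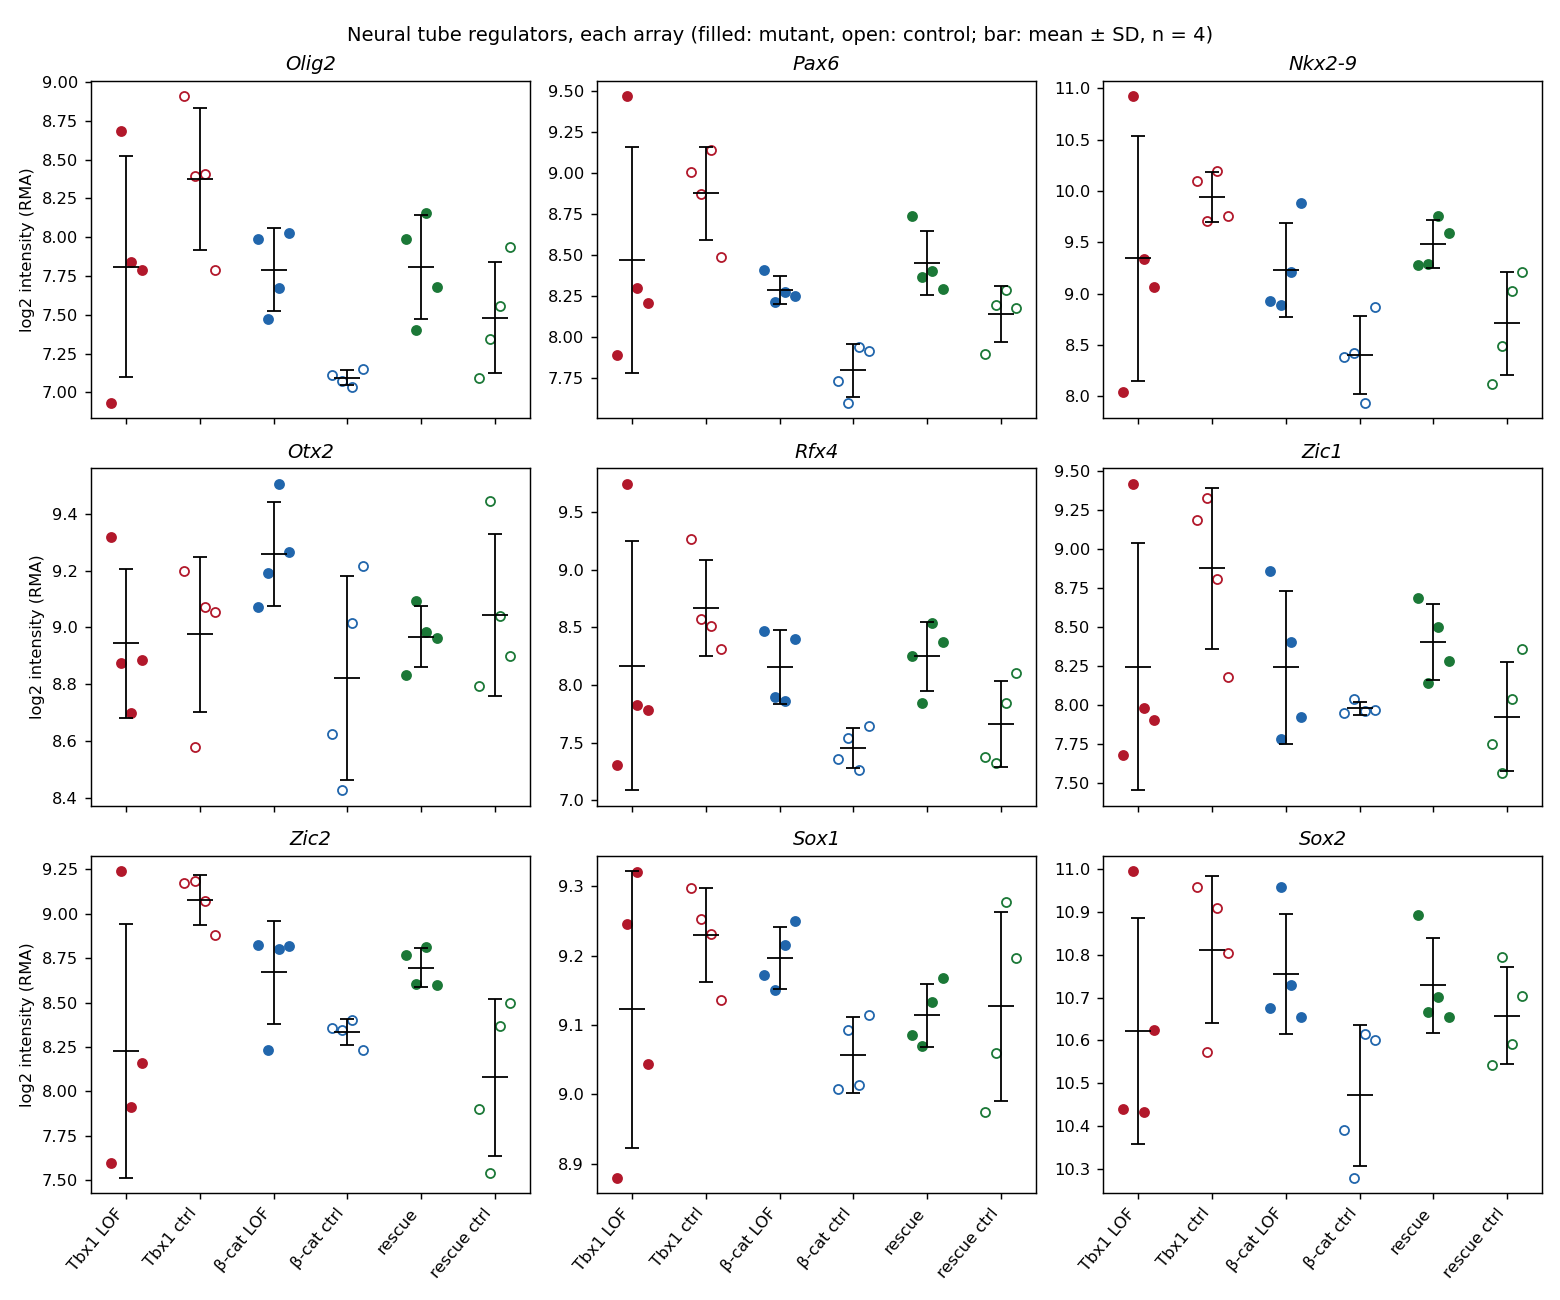
Log2 RMA intensity (vertical axes) of each of the 9 regulators on every array, in the order of arrays 1 to 4 within each group, with mutants filled and controls open; bars are the mean ± SD (n = 4). The second *Tbx1 LOF* array stands high and the first low for most genes, and the *β-cat LOF* arrays lie above their controls without overlap for 6 genes.

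Counted over the 9 genes, the mean difference was negative for 9 in *Tbx1 LOF*, positive for 9 in *β-cat LOF* and positive for 7 in rescue, with medians of -0.50, 0.44 and 0.33. Mutant arrays lay above all controls for 0 genes in *Tbx1 LOF* (1.32% of all genes), for 6 in *β-cat LOF* (2.06%) and for 3, *Pax6*, *Nkx2-9* and *Zic2*, in rescue (0.737%). They lay below all controls for 0 of the 9 in any comparison, against 0.973%, 0.787% and 2.24% of all genes. Since the 9 were chosen on these values, nothing is read from the counts.

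**Figure D2:**
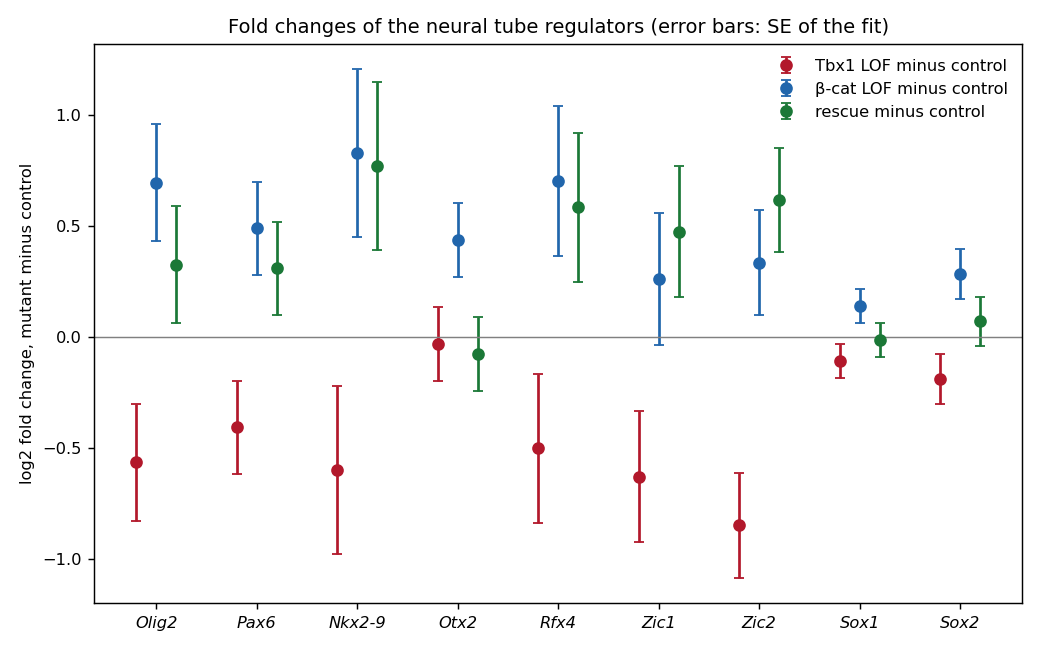
Log2 fold change (mutant minus control) of each regulator in *Tbx1 LOF*, *β-cat LOF* and rescue, with the SE of the fit over 24 arrays as error bars. In *Tbx1 LOF* the values run between -0.85 and -0.03, and in *β-cat LOF* between 0.14 and 0.83.

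The mean of the 9 genes, each taken relative to its own mean over the 24 arrays, puts the arrays side by side. It was -0.54, 0.85, -0.14 and -0.16 in *Tbx1 LOF*, against 0.69, 0.39, 0.49 and 0.17 in its controls. It was 0.17, -0.13, 0.08 and 0.17 in *β-cat LOF*, against -0.44, -0.46, -0.41 and -0.24 in controls. In rescue it was 0.18, -0.05, 0.23 and 0.08, against -0.50, -0.35, -0.10 and 0.02. *Tbx1 LOF* thus held both the highest and the lowest array of all 24, and its SD of 0.59 was the widest of the 6 groups, the others lying between 0.10 and 0.23. Pool size depended on genotype, and its part in these spreads was not tested. The mean difference was -0.43 in *Tbx1 LOF*, 0.46 in *β-cat LOF* and 0.34 in rescue.

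The control groups also stood apart. Ordered by their mean, the groups were controls of *Tbx1 LOF* (0.43 ± 0.22), rescue (0.11 ± 0.12), *β-cat LOF* (0.07 ± 0.14), *Tbx1 LOF* (0.00 ± 0.59), controls of rescue (-0.23 ± 0.23) and controls of *β-cat LOF* (-0.39 ± 0.10; SD, n = 4 each). In this order the first and second groups differed by more than the larger of their SDs, and all other neighbours by less than it. Every control array of *Tbx1 LOF* (0.17 or more) lay above every other control array (0.02 or less), and the controls of *Tbx1 LOF* and of *β-cat LOF* differed by 0.82, more than any mutant differed from its own controls. For *Pax6*, *Nkx2-9*, *Rfx4* and *Zic2* the lowest *Tbx1 LOF* control likewise exceeded the highest of the other 8 controls, at 8.49 against 8.29 for *Pax6* and at 8.88 against 8.50 for *Zic2*. Experiment, control genotype and strain background differ together between these groups and cannot be told apart.

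Leaving out single arrays moved the *Tbx1 LOF* value. Without the second *Tbx1 LOF* array the mean difference of the 9 genes was -0.71, and without the first it was -0.25. For *Nkx2-9* the same values were -1.12 and -0.16, for *Rfx4* -1.02 and -0.21, for *Olig2* -0.85 and -0.27, for *Pax6* -0.74 and -0.21, for *Zic1* -1.02 and -0.44, and for *Zic2* -1.19 and -0.64. *Sox2* was at -0.31 without the second array, and *Sox1* at -0.03 without the first and -0.17 without the third. Without the second array 5 of the 9 genes (*Pax6*, *Nkx2-9*, *Rfx4*, *Zic1* and *Zic2*) lay below all controls, where 2.96% of all genes did. Nothing is read from this count, since both the genes and the array were picked with these values in view. In *β-cat LOF* the mean difference stayed between 0.43 and 0.53 and in rescue between 0.25 and 0.42 as each array was left out. *Olig2* in rescue was at 0.20 without the first control array.

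In *Tbx1 LOF* the mean difference was -0.38 over arrays 1 and 2 and -0.48 over arrays 3 and 4. For *β-cat LOF* these values were 0.47 and 0.46, and for rescue 0.49 and 0.19. Arrays of the same number differed in the positive direction for 1 of 4 pairs in *Tbx1 LOF* (array 2), 4 of 4 in *β-cat LOF* and 4 of 4 in rescue. The sources do not name the batch of an array, and the part of batch in these differences was not tested.

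Within groups, the regulators varied together. After each group's mean was removed, the 36 pairs of genes had a median Pearson r of 0.60 over 24 arrays, between -0.31 and 0.89, and 29 were positive. *Olig2*, *Pax6*, *Nkx2-9*, *Rfx4*, *Zic1* and *Zic2* formed the closest set, with a median of 0.80 over 15 pairs and a range of 0.59 to 0.89. These genes include ventral and dorsal regulators, which in the neural tube lie in different cells. *Olig2* and *Rfx4* were the closest pair, with r = 0.89 and Spearman's rho of 0.87, at 0.90 in the *Tbx1* arrays, 0.86 in the *β-cat* arrays and 0.88 in the rescue arrays. The 24 points share the dissection and the normalization, and these correlations are given as a description.

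Part of this rested on the first and second *Tbx1 LOF* arrays, the 2 farthest from their group's mean. Without them the 15 pairs had a median r of 0.60 (0.13 to 0.88), and *Olig2* with *Rfx4* remained at 0.88. By experiment the median of the 15 pairs was 0.91 in the *Tbx1* arrays, 0.37 in the *β-cat* arrays and 0.73 in the rescue arrays. *Rfx4* followed the mean of the other 8 most closely (r = 0.93), then *Olig2* (0.89), *Pax6* (0.88), *Zic2* (0.86), *Nkx2-9* (0.83) and *Zic1* (0.77).

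The SoxB1 genes were looser. *Sox1* had r = 0.65 with the other 8 and was at 0.63 without the 2 arrays, on a within-group SD of 0.11, the smallest of the 9. *Sox2* had r = 0.54, which was 0.08 without the 2 arrays and -0.36 in the *β-cat* arrays, so its relation rested on those arrays. *Otx2* had r = -0.18, and 1 of its 8 pairs, that with *Sox2* (0.38), was positive. Without the 2 arrays its r was -0.02, and its pairs then had a median of -0.03 (-0.335 to 0.643). By experiment its r was -0.28 in the *Tbx1* arrays, 0.18 in the *β-cat* arrays and -0.30 in the rescue arrays.

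**Figure D3:**
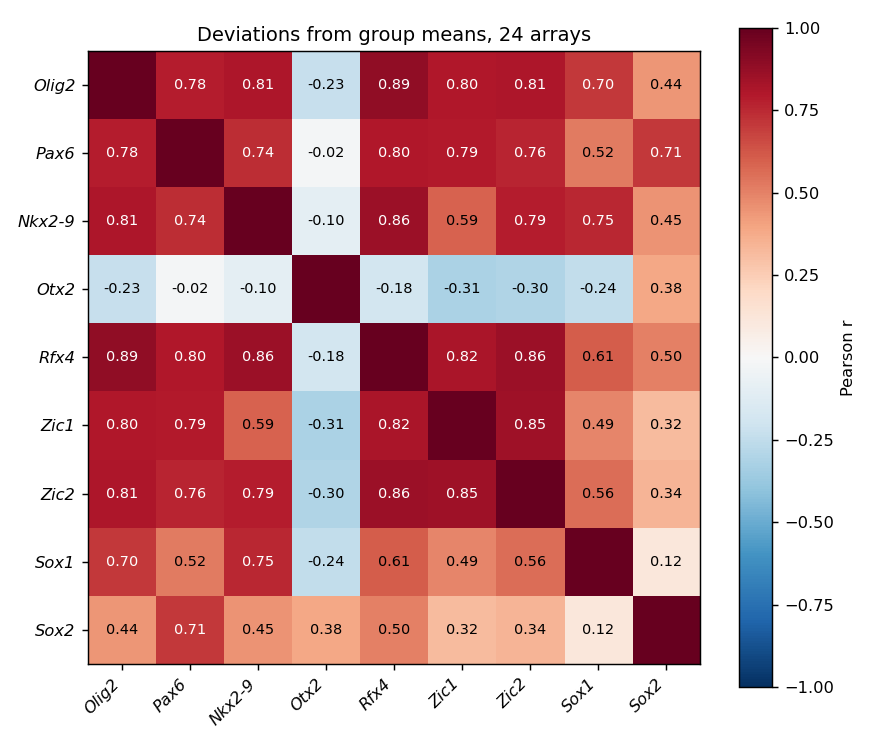
Pearson r between each pair of regulators over 24 arrays, after each group's mean was removed; red is positive and blue negative. The block of *Olig2*, *Pax6*, *Nkx2-9*, *Rfx4*, *Zic1* and *Zic2* runs between 0.59 and 0.89, whereas the *Otx2* row is mostly below 0.

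Across all other genes, 432 of 19929 (2.17%) had r over 0.5 with the mean of the 9 regulators and 193 had r under -0.5. The closest was *Pou3f2*, a POU factor of neural progenitors, with r = 0.99 and rho = 0.95, and r = 0.95 without the 2 farthest arrays. Its log2 fold changes were -0.57 in *Tbx1 LOF*, 0.57 in *β-cat LOF* and 0.43 in rescue (SE 0.31 each). Then came *Nrcam*, a neuronal adhesion molecule (0.95), *Srgap3* (0.91), *Pou3f4* (0.90), *Abca9* (0.89) and *Elavl3*, a neuronal RNA-binding protein (0.88). The next were *Dtx4*, a Deltex family ubiquitin ligase (0.88), the Notch ligand *Dll3* (0.87), *Jam2* (0.87), the Notch target *Hes5* (0.87), the glycine receptor subunit *Glra1* (0.86), *Fez1* (0.86), *Gabrg1*, a GABA-A receptor subunit (0.85), the proneural gene *Neurod4* (0.85) and *Gm32061* (0.85).

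At the other end were *Per2*, a circadian clock gene (-0.75), *Gata5*, a factor of cardiac mesoderm and endoderm (-0.75), *Tbx3* (-0.74), the GATA cofactor *Zfpm1* (-0.71) and *Wdr66* (-0.69). Of these 5, *Tbx3* kept its value in each experiment (-0.76, -0.78 and -0.79). Without the 2 farthest arrays *Tbx3* was at -0.53, *Zfpm1* at -0.46, *Gata5* at -0.37, *Per2* at -0.30 and *Wdr66* at -0.08. *Hes5* had 0.92, 0.84 and 0.92 in the 3 experiments, whereas *Elavl3* had 0.97, -0.05 and 0.77.

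By list, 7 of 14 neural progenitor genes had r over 0.5, among them *Dll1* (0.83), *Notch1* (0.69) and *Fabp7* (0.68), a fatty acid binding protein of radial glia. Of these 7 genes 5 stayed over 0.5 without the 2 farthest arrays, *Pou3f2*, *Hes5*, *Dll1*, *Pou3f3* and *Sox21*, where 4.59% of all other genes were over 0.5. The list mean followed the 9 regulators with r = 0.94 and rho = 0.86, at 0.84 without the 2 farthest arrays and at 0.98, 0.71 and 0.83 by experiment. Of 25 neuron genes 16 passed the same mark, with *Nhlh1* at 0.82 and *Tubb3*, the neuronal β-tubulin, at 0.72. Without the 2 farthest arrays 4 of these 16 stayed over 0.5, *Elavl3* (0.66), *Nhlh2* (0.60), *Neurod4* (0.58) and *Stmn2* (0.52), whereas *Nhlh1* was at 0.46 and *Tubb3* at 0.34, so much of this count rested on those arrays. The neuron list had r = 0.82 as a whole but -0.03 in the *β-cat* arrays. Of 12 ventral and floor plate genes 5 did, *Ferd3l* (0.84), *Nkx2-2* (0.76), the axon guidance cue *Ntn1* (0.72), *Nkx6-1* (0.67) and *Nkx6-2* (0.54), whereas *Shh* (-0.09) and *Foxa2* (0.22), the defining genes of the floor plate, did not. All but *Ntn1* (0.44) of the 5 stayed over 0.5 without the 2 arrays.

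Dorsal genes and brain genes followed the 9 little. Of 16 dorsal and intermediate genes 2 had r over 0.5, *Dbx1* (0.67) and *Pax3* (0.58), which were at 0.23 and 0.20 without the 2 farthest arrays, and the roof plate genes *Wnt1* (-0.04), *Wnt3a* (-0.09) and *Gdf7* (-0.28) did not. Of 17 brain region genes 0 did, with *En1*, a midbrain and hindbrain gene, highest at 0.32. Among 12 genes of the hedgehog pathway 0 did, with the hedgehog targets *Ptch1* at 0.16 and *Gli1* at -0.11 and the transcription factor *Gli2* at -0.51.

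**Figure D4:**
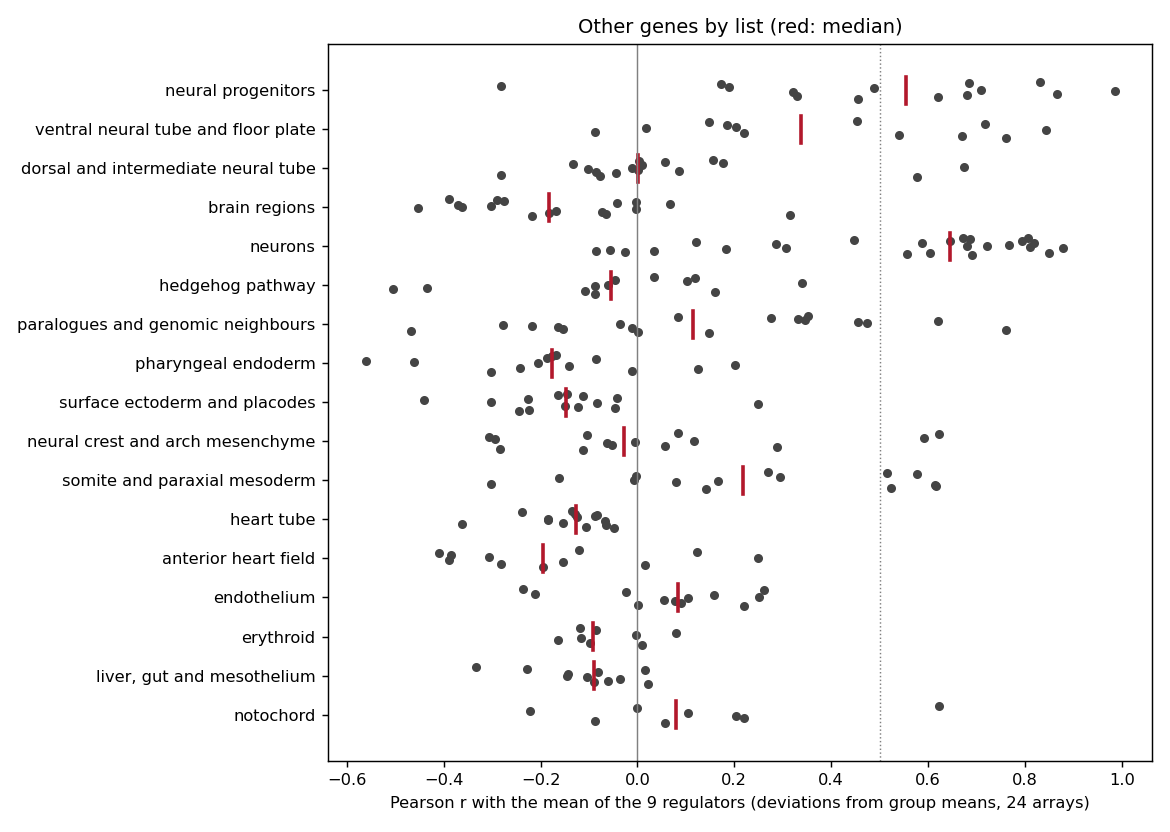
Pearson r of each gene with the mean of the 9 regulators over 24 arrays (horizontal axis), by list, with list medians in red; the dotted line is 0.5. Neurons (median 0.65) and neural progenitors (0.55) lie to the right, brain regions (-0.18) and pharyngeal endoderm (-0.18) to the left.

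Paralogues and genomic neighbours of the 9 gave 2 of 18 over 0.5, *Nkx2-2* and *Sox21* (0.62). *Zic5*, which lies next to *Zic2*, had 0.47 and *Zic4*, next to *Zic1*, had -0.04. *Zic4* was at 0.50 without the 2 farthest arrays. *Sox3*, the third SoxB1 gene, had 0.46, *Olig1*, next to *Olig2*, 0.15 and *Olig3* 0.00. Near *Pax6*, *Elp4* had 0.33 and *Rcn1* 0.28, and *Pax4*, a paralogue, had -0.16. Near *Nkx2-9*, *Nkx2-1* had -0.47 and *Pax9* -0.01, and the related *Nkx2-4* had -0.15. *Ric8b* had 0.35 and, of the RFX family, *Rfx3* had 0.35 and *Rfx2* 0.08. The paralogues of *Otx2*, *Otx1* and *Crx*, had -0.22 and -0.28. Without the 2 farthest arrays 4 of the 18 were over 0.5, where 4.59% of all other genes were. These were *Nkx2-2* (0.65), *Sox21* (0.62), *Rcn1* (0.58) and *Olig1* (0.56). The list mean then had r = 0.59, against 0.35 with all arrays.

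Tested across all genes by limma, 0 of 84 genes of the 5 neural lists (progenitors, ventral, dorsal, brain and neurons) passed the adjusted threshold in any comparison. Unadjusted p by limma was under 0.05 for 12 in *Tbx1 LOF* (14.3%), 11 in *β-cat LOF* (13.1%) and 2 in rescue (2.38%). Of all genes, 4.12%, 5.72% and 1.27% were under it. The lists were chosen with earlier results of these data known, and some of their genes varied with the 9 regulators. Nothing is therefore read from these shares. The 12 became 4 without the first *Tbx1 LOF* array and 26 without the second, the 11 became 5 without the third *β-cat LOF* control and 20 in the fit to 8 arrays, and the 2 became 10 with array weights. Positive differences were counted for 17, 65 and 51 of the 84, with medians of -0.08, 0.12 and 0.03. In *β-cat LOF* 13 of 14 genes of surface ectoderm and placodes (median 0.15) and 11 of 13 of pharyngeal endoderm (median 0.13) were positive as well. Mutant arrays lay above all controls for 9 of the 84 in *β-cat LOF*, where 2.06% of all genes did so, among them *Pou3f2*, *Ina*, a neuronal intermediate filament (0.43), *Neurod4* (0.36), *Dll1* (0.28), *Nkx2-2* (0.26) and *Sox3* (0.18), and for 0 in the other comparisons. Of all genes 1.32% lay above all controls in *Tbx1 LOF* and 0.737% in rescue. *Emx2* (-0.38) was the only one of the 84 below all controls in *Tbx1 LOF*, beside 0.973% of all genes. *Barhl2* (-0.30) was the only one in rescue, beside 2.24% of all genes. Nothing is read from these single genes. The largest negative values in *Tbx1 LOF* were those of *Slit1*, a midline guidance cue (-0.65, adjusted p = 0.474), *Pou3f2*, *Ntn1* (-0.54) and *Neurod4* (-0.51). Without the second *Tbx1 LOF* array 2 of the 84, *Slit1* (-0.89, adjusted p = 0.0166) and *Pou3f2* (-1.06, adjusted p = 0.0209), passed the limma threshold, as did 0.16% of all genes, in a fit chosen after the values of that array were seen.

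Of the 18 paralogues and neighbours 0 passed in any comparison, and their medians were -0.06, 0.10 and -0.02. *Pax9*, a pharyngeal pouch gene, had the largest difference among them, -0.36 in *Tbx1 LOF* (SE 0.09, limma adjusted p = 0.376). In the hedgehog list 0 of 12 passed, and its medians were -0.04, 0.01 and -0.01.

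Other tissues in the dissection were read by lists of their marker genes. Somite and paraxial mesoderm genes had negative differences in *Tbx1 LOF* for 12 of 14 (median -0.23), with *Meox2* at -0.82 and *Foxd1* at -0.54. Of these 14 genes 5 had r over 0.5 with the 9 regulators, among them *Tcf15* (0.62) and *Foxc2* (0.61), of which only *Tcf15* (0.56) stayed over 0.5 without the 2 farthest arrays, and their mean had r = 0.46, at 0.60 in the *Tbx1* arrays, -0.04 in the *β-cat* arrays and 0.12 in the rescue arrays. *Pax3* stands in both the dorsal and the somite list. The mean level of AHF genes ran against the 9 in each experiment (r = -0.45, -0.59 and -0.62, and -0.46 in all with rho = -0.50), although 0 of 11 single AHF genes were under -0.5.

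Pharyngeal endoderm genes had 0 of 13 over 0.5 (list r = -0.35, at 0.05 without the 2 farthest arrays), surface ectoderm and placodes 0 of 14 (-0.27), heart tube 0 of 14 (-0.15), endothelium 0 of 12 (0.14) and erythroid cells 0 of 8 (-0.06). Neural crest and arch mesenchyme had 2 of 14, *Sox9* (0.62) and *Twist1* (0.59), with a list r of 0.03. Without the 2 farthest arrays *Twist1* was at 0.63 and *Sox9* at 0.04. These list values differed between the *Tbx1*, *β-cat* and rescue arrays, given here in that order. Erythroid cells had -0.27, 0.85 and -0.64, endothelium 0.50, -0.56 and -0.23, and heart tube 0.07, -0.27 and -0.665. Pharyngeal endoderm had -0.54, -0.32 and 0.25, surface ectoderm -0.53, 0.12 and -0.27, and neural crest 0.16, -0.175 and -0.09. Heart tube genes differed in the other direction to the 9 regulators in 2 comparisons, with a median of 0.81 in *Tbx1 LOF*, where 11 of 14 lay above all controls (1.32% of all genes), and of -1.23 in *β-cat LOF*, where 5 of 14 lay below all controls (0.787% of all genes). The second *β-cat LOF* control stood apart here, with a heart tube level of 2.48 relative to the 24 arrays against 0.83, 0.34 and 0.20 in the other 3 controls, and without it the median was -0.68. The largest values in the list were those in *β-cat LOF* of *Nppa*, which encodes atrial natriuretic peptide (-2.68), *Tnni3*, cardiac troponin I (-1.94), *Smpx* (-1.78) and *Myl2*, a ventricular myosin light chain (-1.69). None of the 14 passed the adjusted threshold by limma. Unadjusted p by limma was under 0.05 for 11 of them in *β-cat LOF* (5.72% of all genes) and for 9 in *Tbx1 LOF* (4.12% of all genes). Liver, gut and mesothelium genes were positive for 11 of 11 in *Tbx1 LOF* (median 0.37, and 0.19 without its first array), led by the fetal liver and yolk sac genes *Afp* (1.39) and *Ttr* (1.34), whose groups overlapped, with *Apoa1* (0.52) and *Wt1* (0.46). They were positive for 2 of 11 in *β-cat LOF* (median -0.12). Erythroid genes were positive for 8 of 8 in *Tbx1 LOF* (median 0.22), with *Gata1* at 0.30, and endothelial genes for 1 of 12 in *β-cat LOF* (median -0.11), with *Tek* at -0.37. None of the genes of these 3 lists passed the adjusted threshold. The part of these tissues in the values of the 9 regulators was not tested.

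*Otx2* followed other genes than the rest of the set. Its r was 0.68 with the pharyngeal endoderm list (rho = 0.59), 0.58 with surface ectoderm, 0.49 with AHF genes, -0.16 with neural progenitors and -0.51 with somite genes. The single gene most like *Otx2* was *Cdh1*, which encodes E-cadherin of epithelia (r = 0.82, rho = 0.78), and the tight junction gene *Cldn6* had 0.74. Between them stood *Slc22a29* (0.80), *Smim3* (0.79), *Ccl6* (0.77), *Nuak1* (0.77), *Spata24* (0.76) and *Ap1m2* (0.75). All were looked up after the values of *Otx2* were seen. *Cdh1* and *Cldn6* belong to the pharyngeal endoderm list, so they are part of its r of 0.68. By r, *Sox1* was closest to the ventral (0.71, rho = 0.72) and dorsal (0.71, rho = 0.41) neural lists, with 0.58 for neural progenitors (rho = 0.69). *Sox2* had r = 0.54 with neurons, 0.48 with neural progenitors, 0.42 with neural crest and 0.26 with pharyngeal endoderm. Its rho gave another order, at 0.36, 0.14, 0.43 and 0.40 for these lists.

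**Figure D5:**
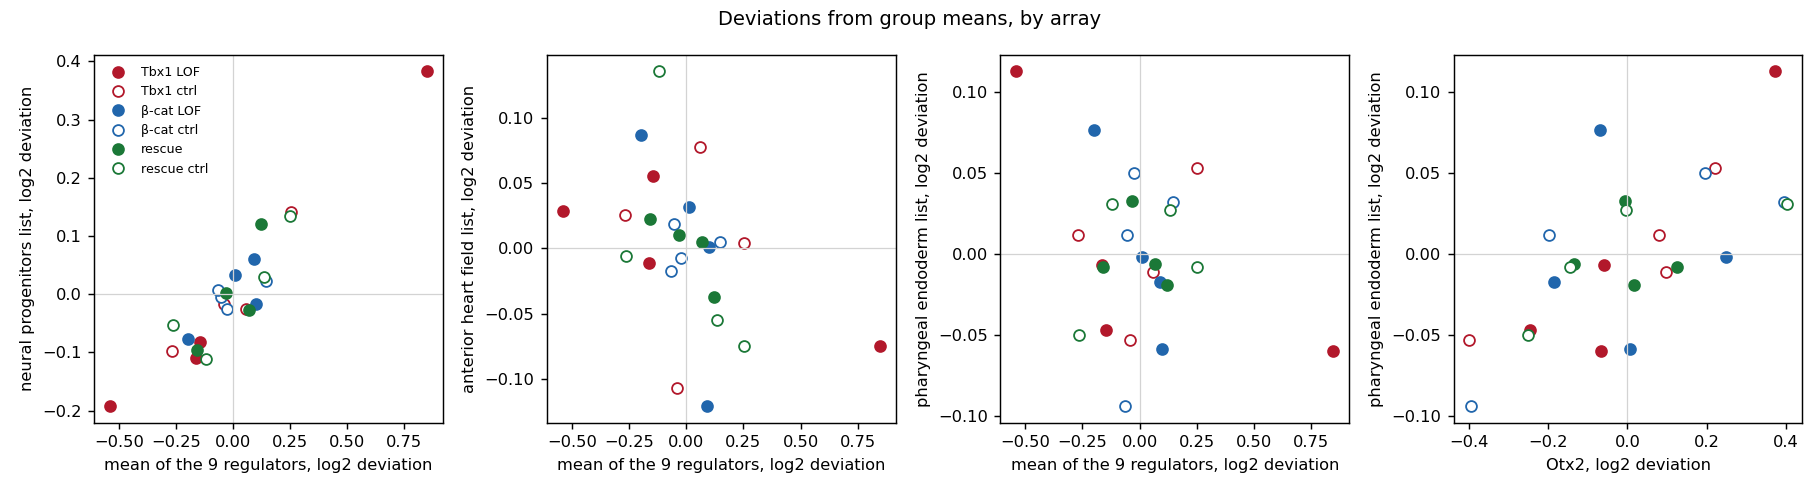
Deviation of each array from its group mean, in log2 units, for the mean of the 9 regulators against neural progenitor, anterior heart field and pharyngeal endoderm lists (first 3 panels) and for *Otx2* against pharyngeal endoderm (last panel); mutants are filled and controls open. Progenitor genes follow the regulators over the 24 arrays (r = 0.94), and *Otx2* follows endoderm genes (r = 0.68).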

How the data were processed

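Arrays were taken from 24 pooled tissue samples. The deposited values are log2 intensities that the authors made with RMA (background correction, quantile normalization, probe set summary) in the oligo package. The methods name ComBat for batches, but the sources do not say whether the deposited values include it. Of 35556 probe sets, 21789 with 1 gene symbol were averaged to 19938 genes, setting aside 1621 probe sets of more than 1 symbol and 12146 without a symbol. Groups were taken from the labels. Each mutant group was compared with its own controls in one limma fit (3.58.1, R 4.3.3) of 6 group means over 24 arrays, with Benjamini-Hochberg adjustment over all genes and a threshold of 0.05. The fit was tested on simulated arrays with independent normal errors. These held no batches and no deviations shared between genes, so that test says nothing about either. The labels do not say that arrays came from separate litters, so errors measure the spread between pools. Correlations used deviations from group means, with no p. The members and gene lists were chosen with earlier results of these data known. All 9 members were named, with the 15 genes most and 5 least like their mean, from each list up to 4 of the largest fold changes and up to 3 of the highest correlations, and all paralogues and neighbours. List genes named besides these were chosen after their values were seen. Promoter windows came from RefSeq (GRCm38.p6).

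Alternatives were fits to 8 arrays, the array number as a block, a term for arrays 1 and 2, median centring, repeated quantile normalization, the brightest probe set, genes under the 25th percentile left out, array weights, and each array left out. Same-numbered arrays deviated together in *Tbx1* arrays (r = 0.16 to 0.49, each over 0.1), less so in *β-cat* arrays (0.09 to 0.48) and not in rescue arrays (-0.06 to 0.26). The same-numbered array was the best match for 1, 2 and 1 of 4 numbers.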

Additional observations from a re-analysis of the deposited data

Results flagged for a closer look

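One value stood apart from the other 3 of its group. *Zic2* in the second *β-cat LOF* array was the lowest of 4 at 8.23, and its gap to the next made up 0.968 of the group's range, above Dixon's critical value for 4 samples. Chance gives such a gap in about 1 of 20 groups, and 60 groups of 4 were examined. Without this array the log2 fold change of *Zic2* in *β-cat LOF* was 0.48, against 0.34 with it.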

How the results depend on the processing

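The mean difference of the 9 regulators kept its sign in every alternative, and as each array was left out it ran between -0.71 and -0.25 for *Tbx1 LOF*, between 0.43 and 0.53 for *β-cat LOF* and between 0.25 and 0.42 for rescue. Each main result was set against a wide tolerance around its main value. A mean difference had to move by less than the SD between arrays. A count had to be equal or within a set ratio, and the median r had to stay inside an approximate interval. On these terms 223 values stayed within the tolerance, and 1 did not. This was the count of neural list genes called in *Tbx1 LOF*, which was 0 to 2 as arrays were left out, with 2 without the second *Tbx1 LOF* array. The median r of the 36 pairs was 0.44 to 0.73 as arrays were left out, lowest without the same array. With the array number as a replicate block, the mean difference was -0.43, 0.46 and 0.34, and 0 neural list genes were called, but over all genes 0, 2 and 0 were called in *Tbx1 LOF*, *β-cat LOF* and rescue, against 6, 0 and 0. Fits to the 8 arrays of an experiment called 0 in *Tbx1 LOF*, and the term for arrays 1 and 2 called 10. Over all genes the count ran between 0 and 32 in *Tbx1 LOF*, between 0 and 42 in *β-cat LOF* (42 without its last control) and between 0 and 1 in rescue. The sign of *Otx2* turned in *Tbx1 LOF* (-0.16 to 0.05) and rescue (-0.16 to 0.06), and that of *Sox1* in rescue (-0.06 to 0.04), as arrays were left out. Pools of embryos, 4 arrays a group and unknown batches limit these values.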
